A study of Mus musculus with 32 samples.

Results

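The AP-1 transcription factor genes examined here were 8 genes taken by symbol out of 55573 in the count table. They are the 4 Fos family genes Fos, Fosb, Fosl1 and Fosl2, the 3 Jun family genes Jun, Junb and Jund, and Atf3. Their mRNAs were counted by RNA-seq in 16 libraries of cultured mouse hippocampal neurons, and each of the 8 averaged 10 counts or more in every comparison below. WT cultures came from C57BL/6 mice and KO cultures from Mettl3Flox/Flox mice. Both genotypes received an adeno-associated virus for Cre-P2A-dTomato at 50000 vg per cell on day 7 in vitro, so that the genotype of the floxed cultures is Mettl3-/- after recombination and the WT cultures carry Cre as well. The synapsin promoter of that virus drives Cre in neurons, so other cells of the culture keep Mettl3, which encodes the catalytic subunit of the enzyme that writes N6-methyladenosine (m6A) in mRNA. All cultures were silenced on day 14 with 1 µM tetrodotoxin, a sodium channel blocker, and 50 µM D-AP5, an NMDA receptor blocker, for 16 h. On day 15 they were either left as they were (Ctrl) or depolarized with 55 mM KCl for 2 h (KCl). The neurons grew on a porous membrane, and neurites were scraped from its lower side and somata from its upper side, where neurites that did not cross also remain. Each of the 8 groups had 2 libraries. Cultures were pooled from newborn pups of both sexes, the duplicates came from separate litters, and genotype, strain and litter cannot be told apart.

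AP-1 is a dimer of basic leucine zipper proteins that binds DNA and regulates transcription. Jun proteins can pair with each other or with Fos proteins, whereas Fos proteins need a Jun partner, and ATF3 can pair with Jun proteins. Several of these genes are immediate early genes of neurons: calcium entry after synaptic activity or depolarization switches them on within minutes through factors already present in the nucleus, without new protein synthesis. Their mRNAs are short-lived, and Fos mRNA and protein are widely used as a mark of recently active neurons.

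In GRCm38 (mm10), the Fos family genes are Fos (ENSMUSG00000021250) at chr12:85473890-85477273 on the plus strand, Fosb (ENSMUSG00000003545) at chr7:19302696-19310051 on the minus strand, Fosl1 (ENSMUSG00000024912) at chr19:5447547-5455946 on the plus strand and Fosl2 (ENSMUSG00000029135) at chr5:32135801-32157842 on the plus strand. The Jun family genes are Jun (ENSMUSG00000052684) at chr4:95049034-95052222 on the minus strand, Junb (ENSMUSG00000052837) at chr8:84974484-84978718 on the minus strand and Jund (ENSMUSG00000071076) at chr8:70698949-70700616 on the plus strand, and the last gene is Atf3 (ENSMUSG00000026628) at chr1:191170296-191218039 on the minus strand. All 8 are annotated as protein coding, and reads were counted over their exons.

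Libraries held 33789183 to 71394235 counts, and replicates were less alike in KO than in WT. The SD of the log2 difference between the replicates of a group, over genes that averaged 100 counts or more, was 0.193 to 0.396 in WT and 0.546 to 1.45 in KO. Mettl3 was at 13.5 to 16.7 CPM (counts scaled to library size) in WT soma and 6.18 to 11.0 in KO soma, and at 9.04 to 12.4 in WT neurites and 3.91 to 8.23 in KO neurites, with no overlap within a fraction. The 10 neuron markers summed to 4134 to 5737 CPM in WT soma and 5446 to 6769 in WT neurites, and to 1980 to 5646 in KO soma and 1131 to 6122 in KO neurites, and none was at 0 in any library. The soma and neurite libraries of KO KCl replicate 1 stood apart: their neuron markers were lowest, at 1980 and 1131 CPM, and their 11 astrocyte markers summed to 9941 and 19390 CPM. The other KO libraries had 1966 to 2600 (soma) and 2839 to 6777 CPM (neurites) of astrocyte markers, and WT had 1179 to 1694 and 2073 to 3171, so that every KO soma library was above every WT soma library. The 7 oligodendrocyte lineage markers summed to 3605 and 7261 CPM in KO KCl replicate 1 and to 38.5 to 172.2 elsewhere. Microglia markers reached 235.9 and 172.8 CPM there against at most 34.7 elsewhere, and fibroblast and vessel markers 135.6 and 770.3 against at most 111.2. No marker of these lists was at 0 in any library. In such bulk samples, fewer cells of a type and less RNA per cell cannot be told apart. KO results that involve KCl are therefore given below with and without these 2 libraries.

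At rest in WT soma, the AP-1 mRNA pool was mostly Jun. Levels between genes are compared here in FPKM, the fragment counts divided by the exon length in the count table and by the TMM-scaled library size. Jun, the founding member of its family, stood at 113.5 ± 7.64 FPKM (SD, n = 2) and Junb, a Jun family gene that is also an early gene, at 42.5 ± 0.467 FPKM. Fos followed at 5.38 ± 0.127 and Jund, the Jun gene usually regarded as constitutive, at 4.69 ± 1.15 FPKM, and these 2 overlapped. Below them were Fosl2 at 1.78 ± 0.0127, Atf3 at 1.17 ± 0.0205, Fosb at 0.224 ± 0.0566 and Fosl1 at 0.169 ± 0.00728 FPKM, each neighbour without overlap. Expressed as shares of the summed FPKM of the 8 genes, Jun took 65.7 to 68.2% of the pool in the 2 libraries and Junb 24.6 to 25.6%, whereas the 4 Fos family genes together took 4.31 to 4.61%.

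After KCl the order changed. In WT soma Junb stood at 1468 ± 300.5 and Fos at 1264 ± 136.5 FPKM, and these 2 overlapped. Jun followed at 614.2 ± 19.6, Atf3 at 146.6 ± 6.93 and Fosb at 67.6 ± 19.8 FPKM. Fosl2 at 21.3 ± 10.9 and Jund at 18.8 ± 1.75 FPKM overlapped, and Fosl1 was lowest at 2.98 ± 0.622 FPKM. Jun now held 16.8 to 17.4% of the pool, Junb 36.3 to 44.8% and Fos 31.2 to 39.4%. The 8 genes together went from 0.055 to 0.0590% of all counts of a WT soma library to 0.857 to 0.954%.

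The exon length is uncertain for genes that share exon bases with another gene, most of all for Fosl1 and Jund. Fosl1 overlaps Ccdc85b on the opposite strand over 1163 of its 2033 exon bases, and Jund overlaps the antisense gene Gm11175 over 877 of its 1668. Jun shares 232 of its 3189 exon bases with Junos, and Junb 173 of its 2301 with Prdx2. The counting was unstranded and left reads over 2 genes unassigned, so reads of the shared stretches are missing. With the unshared length alone, Jund rises to 9.89 FPKM in resting WT soma, above Fos, and Fosl1 to 0.395, above Fosb. Jund after KCl becomes 39.7 FPKM in WT soma, above Fosl2. Jun and Junb become 122.4 and 46.0 FPKM in resting WT soma and 662.1 and 1587 after KCl. The pool shares given here use the full lengths. Fold changes of a gene are not touched by its length.

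**Figure D1:**
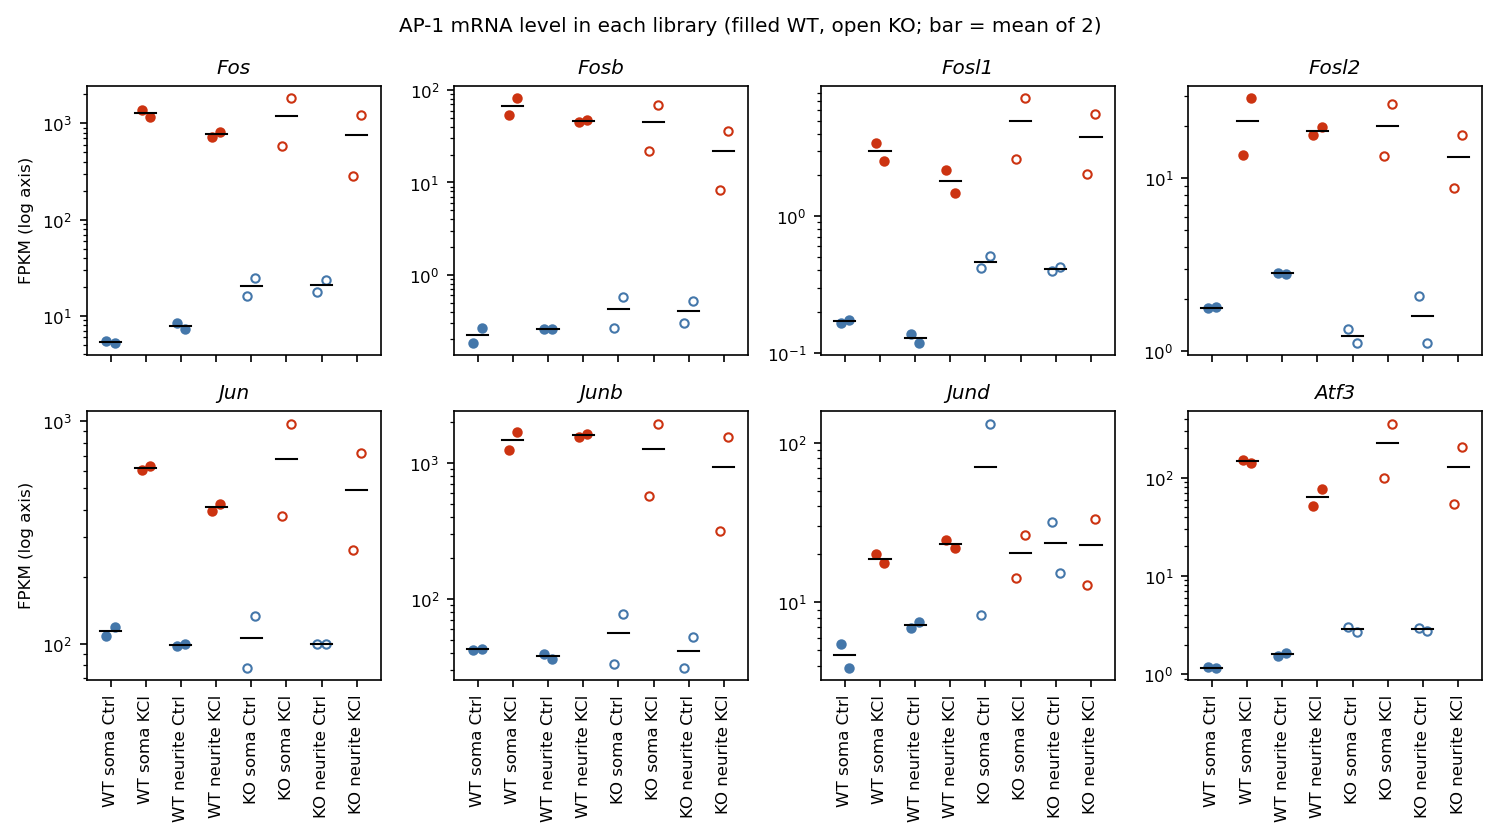
Level of each AP-1 mRNA in every library, in FPKM on log axes that differ between panels, with Ctrl in blue, KCl in red, WT filled and KO open, and a bar at the mean of 2 libraries. Fos lay at 5.29 to 5.47 FPKM in Ctrl and 1168 to 1361 FPKM in KCl WT soma, and Jund stands out for a single KO soma Ctrl library at 132 FPKM.

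**Figure D2:**
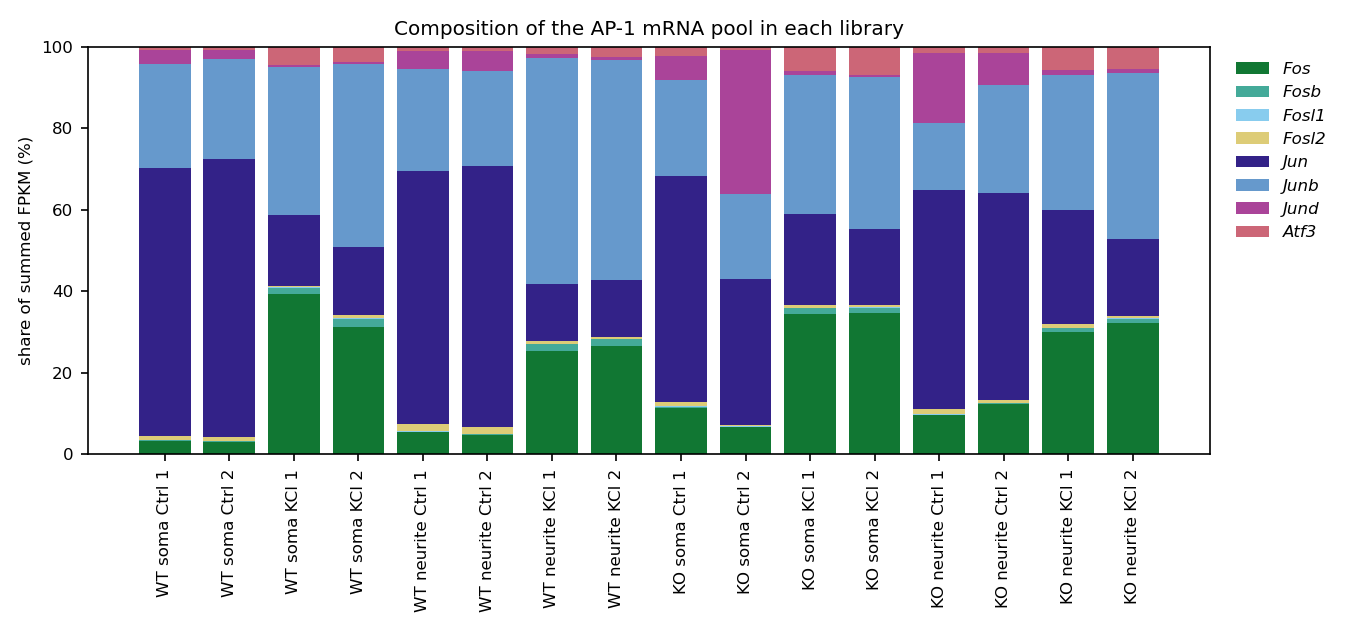
Share of the summed FPKM of the 8 genes held by each gene, in percent, in each of the 16 libraries. Jun fills 65.7 to 68.2% of the bar in resting WT soma and 16.8 to 17.4% after KCl, where Junb and Fos take most of the rest.

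The first comparison asked which AP-1 mRNAs follow depolarization in WT soma. All 8 rose, from 3.79-fold for Jund to 289-fold for Fosb. A gene was called when it changed at least 2-fold with an adjusted p of at most 0.05 by edgeR's quasi-likelihood test with Benjamini-Hochberg adjustment over all genes, here fitted on the 8 WT libraries. By this rule 899 of 24060 genes, or 3.74%, were called higher and 712, or 2.96%, lower. For each of the 8 both KCl libraries were above both Ctrl libraries, as they were for 33.8% of all genes. The median log2 change was 4.55 over the 8 AP-1 genes and 0.0087 over all genes tested. FPKM, CPM and ratios between libraries were scaled over all 16 libraries, whereas each fold came from a fit scaled over its own libraries. A fold can therefore differ somewhat from the ratio of the printed levels.

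Among the Fos family, whose proteins carry strong activation domains in FOS and FOSB and lack them in FOSL1 and FOSL2, Fos went from 5.47 and 5.29 FPKM in the 2 Ctrl libraries to 1361 and 1168 FPKM in the 2 KCl libraries. That is 223-fold, a log2 change of 7.80 ± 0.154 (SE; edgeR adjusted p = 1.2e-09). Fosb went from 0.184 and 0.264 to 53.6 and 81.6 FPKM, 289-fold (log2 8.18 ± 0.266; edgeR adjusted p = 2.62e-08). Neither gene had a KCl library anywhere near its Ctrl libraries, and these 2 are the family members best known as early response genes. The genes for the shorter proteins changed less. Fosl1 went from 0.164 and 0.174 to 3.42 and 2.54 FPKM, 16.6-fold (log2 4.06 ± 0.308; edgeR adjusted p = 1.28e-05). Fosl2 went from 1.77 and 1.79 to 13.6 and 29.0 FPKM, 11.4-fold (log2 3.51 ± 0.289; edgeR adjusted p = 2.38e-05). The KCl replicates of Fosl2 lay further apart than those of the other AP-1 genes, though both were above both Ctrl libraries. The count behind Fosl1 was small, with 27 and 23 reads in Ctrl and 367 and 356 in KCl.

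Among the Jun family, Junb went from 42.2 and 42.9 to 1256 and 1681 FPKM, 32.8-fold (log2 5.04 ± 0.159; edgeR adjusted p = 2.16e-08). Jun, already the highest at rest, went from 108.1 and 118.9 to 600.4 and 628.1 FPKM, 5.14-fold (log2 2.36 ± 0.105; edgeR adjusted p = 2.57e-07). Jund went from 5.50 and 3.88 to 20.1 and 17.6 FPKM, 3.79-fold (log2 1.92 ± 0.175; edgeR adjusted p = 5.1e-05). The Jun family thus spanned a narrower range of folds than the Fos family, and in each of its genes the groups did not overlap. Atf3, a stress- and activity-induced gene whose product represses many promoters as a homodimer, went from 1.18 and 1.15 to 151.5 and 141.7 FPKM, 119-fold (log2 6.90 ± 0.202; edgeR adjusted p = 1.25e-08). With all 16 libraries in 1 fit, where the wider KO spread enters the estimate, 7 of the 8 genes were called in WT soma and Jund was not (edgeR adjusted p = 0.518).

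The promoters of the genes with the largest changes are shown because cyclic AMP and calcium signals reach Fos partly through CREB, a factor that binds TGACGTCA or its first letters TGACG. RefSeq promoter sequences of assembly GRCm38.p6 were at hand for 7 of the 8 genes, from 250 bases before to 50 after the start. Fosl1 was not matched. Only the first listed start of each gene was used. For Atf3 (191183333) and Fosl2 (32136472) that start lay well inside the gene as given above, and for Jund (70697739) well upstream of it. The 130 bases before the start are printed 5′ to 3′ on the strand of the gene, with TGACG (or CGTCA, its complement read on this strand) and TATAAA in capitals: Fos at chr12:85473760-85473889, plus strand; Fosb at chr7:19310046-19310175, minus strand; Junb at chr8:84978749-84978878, minus strand; and Atf3 at chr1:191183334-191183463, minus strand.
Fos: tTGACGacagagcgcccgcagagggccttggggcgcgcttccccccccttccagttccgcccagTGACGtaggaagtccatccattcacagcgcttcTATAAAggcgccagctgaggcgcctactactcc
Fosb: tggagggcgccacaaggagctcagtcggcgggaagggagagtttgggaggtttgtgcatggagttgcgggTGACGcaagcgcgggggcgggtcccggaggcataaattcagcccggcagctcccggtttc
Junb: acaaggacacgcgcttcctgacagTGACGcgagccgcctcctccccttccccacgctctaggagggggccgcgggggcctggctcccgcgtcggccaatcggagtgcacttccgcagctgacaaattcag
Atf3: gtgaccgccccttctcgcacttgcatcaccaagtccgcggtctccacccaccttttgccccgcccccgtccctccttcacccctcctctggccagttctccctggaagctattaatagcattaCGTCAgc

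TGACG, searched on both strands of the 300 bases, occurred in 4 of the 7 promoters. Fos held it at -129 to -125 and -66 to -62, Fosb at -60 to -56, Junb at -106 to -102 and Atf3, on the opposite strand, at -7 to -3. Of 32851 promoters of the same length, 20.8% held it. The full TGACGTCA was in none of the 7 and in 1.79% of all promoters. TGACTCA, the sequence AP-1 itself binds (TGAGTCA on the other strand), was in none of the 7 and in 5.2% of all, and the CArG box of serum response factor was in none and in 1.63%. TATAAA was in Fos at -33 to -28 and in Junb at 1 to 6, 2 of 7 against 13.6% of all. Bases further than 250 before the start were not searched, so an absence holds for these 300 bases only. A match is a run of letters and not a measured binding site.

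The second comparison was the same contrast in WT neurites, the material below the membrane. All 8 genes rose here as well, from 3.31-fold for Jund to 182-fold for Fosb. In neurites 734 of 22059 genes, or 3.33%, were called higher and 375, or 1.7%, lower. Both KCl libraries were above both Ctrl libraries for each of the 8 and for 25.8% of all genes. The median log2 change was 4.61 over the 8 AP-1 genes and 0.013 over all genes.

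Fos stood at 8.46 and 7.36 FPKM in the Ctrl neurites and at 718.4 and 811.8 FPKM in the KCl neurites, a 99.1-fold rise (log2 6.63 ± 0.145; edgeR adjusted p = 9.93e-09). Fosb went from 0.260 in both to 45.3 and 47.0 FPKM, 182-fold (log2 7.51 ± 0.271; edgeR adjusted p = 1.52e-07). Both genes were clear of overlap. Fosl1 went from 0.138 and 0.118 to 2.17 and 1.47 FPKM, 14.3-fold (log2 3.84 ± 0.337; edgeR adjusted p = 6.75e-05). Fosl2 went from 2.84 and 2.79 to 17.8 and 19.7 FPKM, 6.84-fold (log2 2.78 ± 0.289; edgeR adjusted p = 0.000225). As in soma, these 2 changed less than Fos and Fosb.

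Junb went from 39 and 36.3 to 1569 and 1642 FPKM in neurites, 43.8-fold (log2 5.45 ± 0.166; edgeR adjusted p = 5.08e-08). It was the highest AP-1 mRNA of the KCl neurites, at 53.9 to 55.5% of the pool, with Fos at 25.4 to 26.7% and Jun at 13.9 to 14%. Jun went from 97.3 and 99.3 to 395.2 and 424.2 FPKM, 4.28-fold (log2 2.10 ± 0.103; edgeR adjusted p = 1.09e-06). Jund went from 6.92 and 7.57 to 24.5 and 22.0 FPKM, 3.31-fold (log2 1.73 ± 0.174; edgeR adjusted p = 0.000185). Atf3 went from 1.52 and 1.65 to 52.0 and 76.3 FPKM, 41.6-fold (log2 5.38 ± 0.194; edgeR adjusted p = 1.52e-07). The ranking of the folds put Fosb first, then Fos, then Junb and Atf3, with Jun and Jund last. With all 16 libraries in 1 fit, 6 of the 8 were called in neurites, and Jun (edgeR adjusted p = 0.0872) and Jund (0.782) were not.

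In KO soma, 7 of the 8 genes were higher in both KCl libraries than in both Ctrl libraries, but none passed the test. No gene of 23679 did in either direction (0%) by edgeR's quasi-likelihood test on the 8 KO libraries. At an unadjusted p of at most 0.05 and 2-fold, 855 genes (3.61%) were higher and 659 (2.78%) lower, and the 7 AP-1 genes were among the higher. DESeq2 called 219 genes higher and 51 lower, 7 AP-1 genes among them. Both KCl libraries were above both Ctrl libraries for 20.5% of all genes.

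Fos stood at 16.1 and 24.7 FPKM in KO soma Ctrl and at 576.3 and 1819 FPKM in KO soma KCl, 56.2-fold (log2 5.81 ± 0.973; edgeR adjusted p = 0.3). The ratio of KCl to Ctrl was 35.8 for replicate 1 and 73.5 for replicate 2. Fosb stood at 0.268 and 0.583 FPKM against 21.9 and 68.2, 101-fold (log2 6.65 ± 1.03; edgeR adjusted p = 0.3). Atf3 stood at 3.03 and 2.68 FPKM against 99.5 and 356.9, 77.3-fold (log2 6.27 ± 0.921; edgeR adjusted p = 0.29). For these genes the lower KCl library was replicate 1, the one that stood apart by its glial markers, and the part of those markers in the result was not tested. Without its soma and neurite libraries Fos (log2 6.43, edgeR adjusted p = 0.0312), Fosb (7.27, 0.0407) and Atf3 (6.93, 0.0312) passed, among 19 genes in all. The other genes had log2 changes of 3.36 ± 0.758 for Fosl1, 3.98 ± 0.596 for Fosl2, 2.61 ± 0.712 for Jun and 4.44 ± 1.03 for Junb (edgeR adjusted p = 0.29 to 0.589).

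Jund was the exception in KO soma. It stood at 8.32 and 132 FPKM in Ctrl and at 14.3 and 26.3 FPKM in KCl. The Ctrl libraries enclosed the KCl libraries, and the log2 change was -1.89 ± 1.11 (edgeR adjusted p = 0.756). The value of 132 FPKM came from 12526 reads in replicate 2, where replicate 1 had 639. Without that Ctrl library the change was 1.28. Jund took 35.4% of the AP-1 pool in that library and 5.93% in the other.

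In KO neurites no gene of 22199 was called in either direction (0%), against 893 (4.02%) higher and 435 (1.96%) lower at an unadjusted p of at most 0.05 and 2-fold by edgeR's quasi-likelihood test. Again 7 AP-1 genes, all but Jund, met the unadjusted rule and were higher in both KCl libraries than in both Ctrl libraries, an arrangement seen for 19.6% of all genes. DESeq2 called 224 genes higher and 29 lower, with 6 AP-1 genes among them. Fos stood at 17.8 and 23.9 FPKM against 285.3 and 1225, 34.4-fold (log2 5.10 ± 0.957; edgeR adjusted p = 0.381). Fosb stood at 0.303 and 0.517 FPKM against 8.25 and 35.9, 51.1-fold (log2 5.68 ± 1.00; edgeR adjusted p = 0.381). Atf3 stood at 2.97 and 2.75 FPKM against 53.6 and 204, 42.8-fold (log2 5.42 ± 0.899; edgeR adjusted p = 0.381). Replicate 1 was again the lower KCl library for each. Without its 2 libraries Fos (log2 5.90, edgeR adjusted p = 0.0467) and Atf3 (6.18, 0.0432) passed, among 12 genes in all. The changes of Fosl1, Fosl2, Jun and Junb were 3.13 ± 0.760, 2.97 ± 0.573, 2.23 ± 0.712 and 4.41 ± 1.05, and that of Jund was -0.11 ± 1.08.

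**Figure D3:**
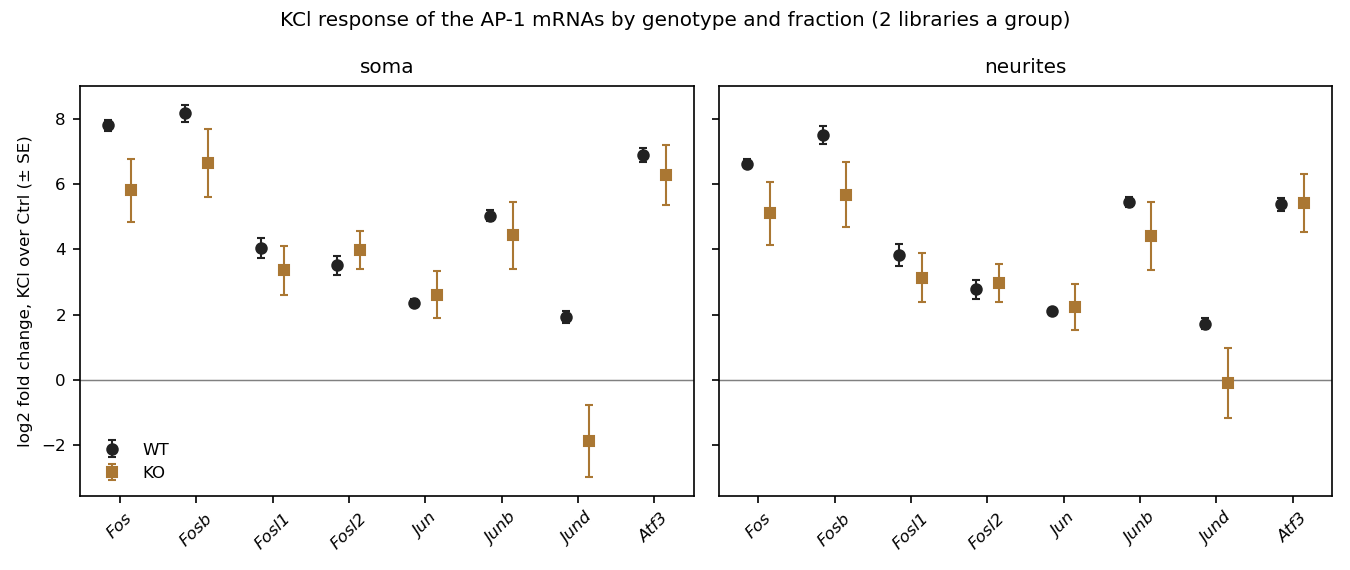
Log2 fold change, KCl over Ctrl, with its SE from the fit on 8 libraries of a genotype, for each AP-1 gene in soma (left) and neurites (right), WT as black circles and KO as brown squares. The error bars of KO are several times those of WT, and Jund in KO soma, at -1.89 ± 1.11, is the lowest point.

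Whether the response to KCl differed between the genotypes was tested as an interaction over all 16 libraries. No AP-1 gene passed at 2-fold and an adjusted p of at most 0.05, and no gene of 24058 did in soma (0% in either direction). By the unadjusted rule, edgeR's quasi-likelihood test gave 196 genes (0.815%) a larger and 231 (0.96%) a smaller response in KO, and DESeq2 called 0 and 2 after adjustment, no AP-1 gene among them. The 2 AP-1 genes that met the unadjusted rule were Fos, with a difference of the log2 changes, KO minus WT, of -2.0 ± 0.857 (edgeR adjusted p = 0.994), and Jund, with -3.80 ± 1.24 (edgeR adjusted p = 0.994). For Jund the difference was -0.68 without KO soma Ctrl replicate 2. Fosb had -1.52 ± 0.928 (edgeR adjusted p = 0.994), and the other 5 genes lay between -0.72 and 0.45. Without the libraries of KO KCl replicate 1 the differences were -1.37 for Fos, -0.90 for Fosb and -3.41 for Jund, and without KO soma KCl replicate 2 they were -3.06, -2.56 and -4.30, with no AP-1 gene called either way.

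In neurites no gene of 22311 passed the interaction test in either direction (0%), against 581 (2.6%) larger and 277 (1.24%) smaller by the unadjusted rule and 0 by DESeq2. No AP-1 gene met the unadjusted rule. Fos had a difference of -1.42 ± 0.856, Fosb of -1.72 ± 0.945 and Jund of -1.72 ± 1.22 (edgeR adjusted p = 0.866 for each), and the other 5 genes lay between -0.93 and 0.31. Without KO KCl replicate 1 the differences of Fos, Fosb and Jund were -0.77, -1.06 and -1.25, and without KO neurite KCl replicate 2 they were -2.83 (edgeR adjusted p = 0.0772), -3.14 (0.0807) and -2.57 (0.241).

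The genotypes were then compared within each treatment and fraction, with calls at 1.5-fold and an adjusted p of at most 0.05. In resting soma no AP-1 gene was called, against 15 of 23750 genes (0.0632%) called higher and 29 (0.122%) lower in KO by edgeR's quasi-likelihood test. By unadjusted p and fold, 1020 genes (4.29%) were higher and 1016 (4.28%) lower, and 4 AP-1 genes were among the higher. These were Fos at 16.1 and 24.7 FPKM in KO against 5.47 and 5.29 in WT (log2 1.92 ± 0.614; edgeR adjusted p = 0.348), Fosl1 (log2 1.45 ± 0.562; edgeR adjusted p = 0.456), Atf3 (1.29 ± 0.587; 0.55) and Jund (3.90 ± 0.949; 0.186). Together with Fosb they were higher in both KO than in both WT libraries, as were 25% of all genes, and Fosl2 was lower in both (log2 -0.54 ± 0.447), as were 23.5%. DESeq2 called 1 AP-1 gene, Jund, and Jund again rested on 1 library, with a change of 0.80 without KO soma Ctrl replicate 2.

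The same 5 genes were higher and Fosl2 lower without overlap in resting neurites, arrangements that held for 23.5% and 25.8% of all genes there. None was called, against 14 of 21814 genes (0.0642%) higher and 27 (0.124%) lower and 0 of the 8 by DESeq2. By unadjusted p and fold 565 genes (2.59%) were higher and 964 (4.42%) lower, with Fos and Fosl1 among the higher. Fos stood at 17.8 and 23.9 FPKM in KO against 8.46 and 7.36 in WT (log2 1.40 ± 0.605; edgeR adjusted p = 0.628). Fosl1 had a change of 1.67 ± 0.593 (edgeR adjusted p = 0.474), Jund of 1.70 ± 0.874, Atf3 of 0.86 ± 0.585 and Fosl2 of -0.81 ± 0.447. Fitted on the 4 libraries of this comparison alone, Fos was called (edgeR adjusted p = 0.0429). Both fractions were taken from the same membranes, so they are not independent views of the genotype. Beside these values, astrocyte markers summed to 1966 to 6777 CPM in the 4 KO Ctrl libraries and 1179 to 3171 in the 4 WT Ctrl libraries, and neuron markers to 3577 to 4398 and 4134 to 6249, and their part in the differences was not tested.

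After KCl no AP-1 gene was called between the genotypes in the fit reported. That does not show equal levels, because the KO replicates lay far apart. In soma the log2 differences of KO from WT lay between -0.59 and 0.73. None was called there, against 11 of 24038 genes (0.0458%) higher and 40 (0.166%) lower. By unadjusted p and fold, 8.12% of genes were higher and 6.04% lower, and 0 of the 8 by that rule or by DESeq2. In neurites they lay between -1.06 and 1.06 and none was called, against 23 of 22488 genes (0.102%) higher and 76 (0.338%) lower; 14.5% were higher and 8.77% lower by unadjusted p and fold, and again 0 of the 8 by that rule or by DESeq2. Fosb, Fosl2 and Junb were lower in both KO neurite libraries than in both WT libraries, an arrangement that held for 25% of all genes. Without the libraries of KO KCl replicate 1, none of the 8 was called in soma and 1, Atf3, was called in neurites.

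Neurites were next compared with soma to see where each mRNA was the more abundant relative to all mRNA, with calls at 1.5-fold. In resting WT cultures no AP-1 gene was called, against 2091 of 23200 genes (9.01%) called higher and 1054 (4.54%) lower in neurites by edgeR's quasi-likelihood test. The rule on unadjusted p and fold, met by 11.6% of genes as higher and 8.57% as lower, gave 0 of the 8 as well, as did DESeq2. Fos came close, with ratios of neurite to soma of 1.55 and 1.39 between libraries of the same number (fitted log2 0.46 ± 0.118, edgeR adjusted p = 0.0218, under 1.5-fold in the fit). Fosl2 had ratios of 1.60 and 1.56 and a fitted log2 difference of 0.57 ± 0.273 (edgeR adjusted p = 0.171). The fitted differences of the others lay between -0.47 and 0.53.

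After KCl, 2 AP-1 mRNAs were called lower in WT neurites than in soma, against 1582 of 23028 genes (6.87%) higher and 629 (2.73%) lower. Fos had neurite to soma ratios of 0.528 and 0.695 (log2 -0.71 ± 0.114; edgeR adjusted p = 0.00354). Atf3 had ratios of 0.343 and 0.538 (log2 -1.18 ± 0.155; edgeR adjusted p = 0.00131). Jun was lower by less than 1.5-fold (log2 -0.57 ± 0.0998; edgeR adjusted p = 0.00538). Junb did not share this: its ratios were 1.25 and 0.977 after KCl and 0.925 and 0.846 at rest. With all 16 libraries in 1 fit no AP-1 gene, and no gene, was called. Nuclear RNAs such as Malat1 summed to 6212 to 7051 CPM in WT soma and 3964 to 4908 in WT neurites, and astrocyte markers to 1179 to 1694 CPM in WT soma and 2073 to 3171 in WT neurites, and their part in these ratios was not tested.

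The change of the neurite to soma ratio with KCl was tested in 1 model with a term for each pair of soma and neurite libraries of the same number. The study's methods isolated the fractions of a membrane as pairs, but no label ties a number to a membrane, and the replicate differences of the 2 fractions correlated at only -0.137 (Ctrl) and 0.0329 (KCl) in WT, so the WT Ctrl numbers may be crossed. The rule of the study's methods for this contrast, 1.5-fold with p not above 0.05 before any adjustment, was the one applied. In WT it was met by 465 of 23200 genes (2%) in the positive and 314 (1.35%) in the negative direction. The smallest edgeR adjusted p of any gene was 0.203. Among the AP-1 genes 3 met the rule, all toward soma: Atf3 with a log2 change of the ratio of -1.55 ± 0.245, Fos with -1.17 ± 0.198 and Fosb with -0.66 ± 0.288 (edgeR adjusted p = 0.938 for Atf3 and Fos and 0.999 for Fosb). The adjusted p depended on the setting: with DESeq2 it was 0.000104 for Atf3 and 0.000651 for Fos, and with no filter on low counts in edgeR 6.34e-07 and 1.22e-05, whereas with all 16 libraries it was 1 for both. Fosl2 had -0.64 ± 0.296 and did not meet the rule. Of the 8 signs 7 were negative, and the median change was -0.45 over the 8 genes and 0.049 over all genes tested. Junb was the one positive value at 0.43 ± 0.202, which did not meet it either.

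In KO neither resting nor KCl neurites had an AP-1 gene called against soma, nor any other gene (0%) in edgeR's quasi-likelihood test. The unadjusted rule was met by 883 genes (3.91%) higher and 356 (1.58%) lower at rest and by 13 (0.0562%) and 119 (0.514%) after KCl, and DESeq2 called 12 and 5 at rest and 0 after KCl. For the change of the ratio with KCl in KO, 55 of 23099 genes (0.238%) met the unadjusted rule in the positive and 460 (1.99%) in the negative direction. Fosb did so (log2 -1.19 ± 0.441; edgeR adjusted p = 1), and Fos (-0.87 ± 0.450) and Atf3 (-0.88 ± 0.402) did not. Without the 2 libraries of KO KCl replicate 1 the change of Fosb was -0.87 and no longer met the rule.

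**Figure D4:**
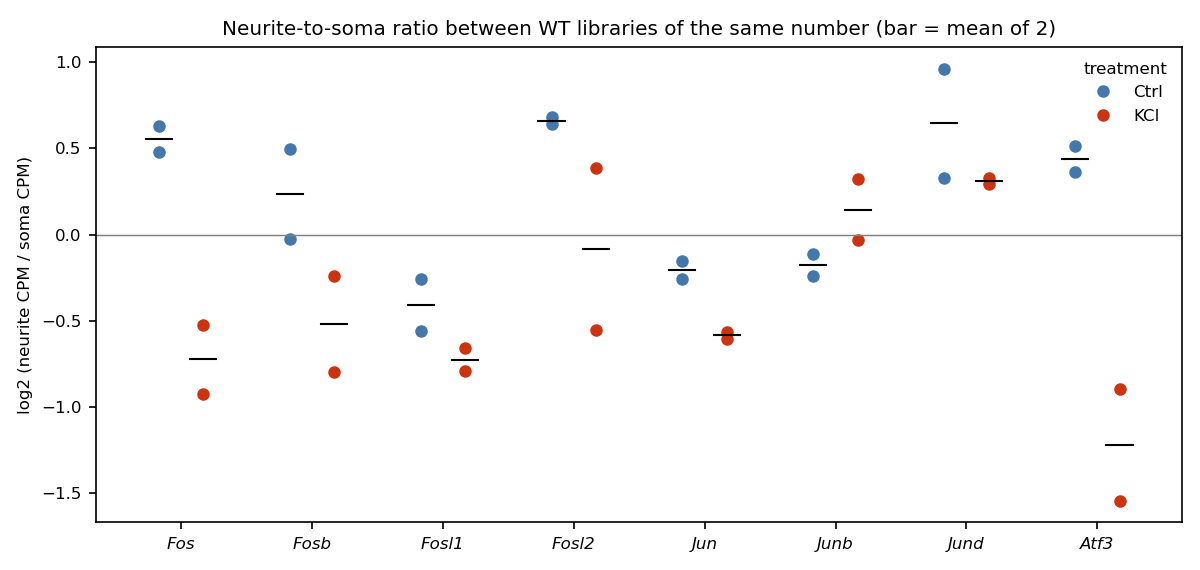
Log2 ratio of neurite to soma CPM for each AP-1 gene between WT libraries of the same replicate number, Ctrl in blue and KCl in red, with a bar at the mean of 2 ratios. The Fos and Atf3 points are above 0 at rest and below 0 after KCl, and the Junb points lie near 0 in both.

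Other genes of the pathway were taken from 2 lists. Of 22 other basic leucine zipper genes that can pair or compete with AP-1, 20 were tested in WT soma, where 6 rose, 1 fell and 13 were not called (median log2 change 0.14), against 3.74% and 2.96% of all genes. Maff, a small Maf protein without an activation domain, went from 1.12 and 1.03 to 59.0 and 79.8 CPM, 60.9-fold (log2 5.93; edgeR adjusted p = 1.11e-07). Mafk, its close relative, rose 7.93-fold (edgeR adjusted p = 2.65e-07), and Atf4, the main effector of the integrated stress response, rose 5.58-fold (edgeR adjusted p = 4.45e-07). Nfil3, Crem and Cebpb were the other genes that rose, and Cebpd fell (log2 -1.71; edgeR adjusted p = 0.00103). In WT neurites 6 of 20 rose and 0 fell, against 3.33% and 1.7% of all genes, and the median was 0.089. Both medians were below those of the 8 AP-1 genes, which were 4.55 in soma and 4.61 in neurites.

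Of 24 upstream activators, among them the kinases and nuclear factors that act on AP-1 promoters, 1 rose and 1 fell in WT soma (median -0.16), which is near the share over all genes of 3.74% and 2.96%. Srf, which encodes serum response factor, rose 2.95-fold (edgeR adjusted p = 0.00795). Elk1, one of its ternary complex partners, fell (log2 -1.18; edgeR adjusted p = 0.00242). In WT neurites Srf alone was called, 2.56-fold higher (edgeR adjusted p = 0.0269). In KO none of the genes of these lists was called in either fraction, where no gene at all was.

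The m6A data came from DART-seq, in which RNA is treated with a fusion of the m6A-binding YTH domain and the cytidine deaminase APOBEC1, so that C-to-U changes appear next to m6A. The deposited tables list 18231 sites in 5643 RNAs, with conversion averaged over libraries by the authors, at least 50 reads and 3 mutations a site, and no replicate values, so that no error can be given and the depth of each site is unknown. Sites had been selected for higher conversion in WT than in KO, and that direction is not a finding here. Of the AP-1 mRNAs, 6 were listed with 21 sites in all: 8 in Fosl2, 7 in Fosb, 2 each in Fosl1 and Jund, and 1 each in Fos and Jun. Junb and Atf3 were not listed. The sequence around the strongest sites of Fosl2 and Fosb and around the Fos site is shown, 21 bases from mm10 on the strand of the gene with the RAC triplet (R is A or G) that ends in the converted C in capitals. All 21 sites ended such a triplet, but the authors kept only sites in a RAC motif, so this is not a finding here. The Fosl2 sites lie in the 5′ UTR (also an exon of a non-coding transcript) at chr5:32136216-32136236 and in the 3′ UTR at chr5:32156113-32156133, plus strand. The Fosb sites lie at chr7:19308022-19308042 and chr7:19307971-19307991, in an exon of a non-coding transcript only, and in the 3′ UTR at chr7:19304238-19304258, minus strand. The Fos site lies in the 5′ UTR at chr12:85473888-85473908, plus strand.
Fosl2 5′ UTR: aaggaggaAACagaagtttct
Fosl2 3′ UTR: ttcacagtGACttccttccct
Fosb non-coding exon, first: ttcactgaAACctgtcagtct
Fosb non-coding exon, second: atgctctcAACtcttaggccg
Fosb 3′ UTR: tcctcctgGACgaattgagcc
Fos 5′ UTR: ccaaccgcGACtgcagcgagc

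Conversion at these sites, as the authors' average, was 14.8% and 12.4% in Fosl2, 10.3%, 8.12% and 5.96% in Fosb and 2.04% in Fos. The 2 Fosl1 sites, both coding, were at 4.86% and 4.63%, the Jun site at 1.15% and the 2 Jund sites at 0.652% and 0.548%. In the deposited score of a whole RNA, Fosl2 ranked 370 of 5643 by its WT score of 0.368, Fosb 1980 at 0.149 and Fosl1 2842 at 0.103. Fos at 0.0204, Jund at 0.0125 and Jun at 0.0115 ranked 5257, 5495 and 5522. The median RNA of the table had a WT score of 0.103 and 2 sites. Fosl2 was therefore the AP-1 mRNA with the highest score, and Fos, Jun and Jund were near the bottom of the listed RNAs. Per the paper, the averages take in both Ctrl and KCl libraries, between which the levels of these mRNAs differed widely. The part of this in the scores, and in the absence of Junb and Atf3, was not tested.

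KO scores were 0.140 for Fosl2, 0.0618 for Fosb, 0.0132 for Fosl1, 0.00638 for Jun, 0.00490 for Jund and 0 for Fos. By fraction, the score of Fosl2 was 0.323 in soma and 0.428 in neurites, that of Fosb 0.134 and 0.174, and that of Jun 0.00889 and 0.0159. Fosl1 went the other way with 0.126 and 0.064, as did Fos with 0.0307 in soma and a listed 0 in neurites. In all, 4 of the 6 mRNAs had the higher score in neurites, as did 68.8% of all listed RNAs. The WT score was within 1% of the sum of the site values for 30.6% of RNAs only; for Fosb the sum was 0.319 and for Fosl2 0.449. The paper describes the score as conversion summed over the called sites of an RNA. For most RNAs such a sum of the listed site values did not give back the deposited score, and why was not tested.

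**Figure D5:**
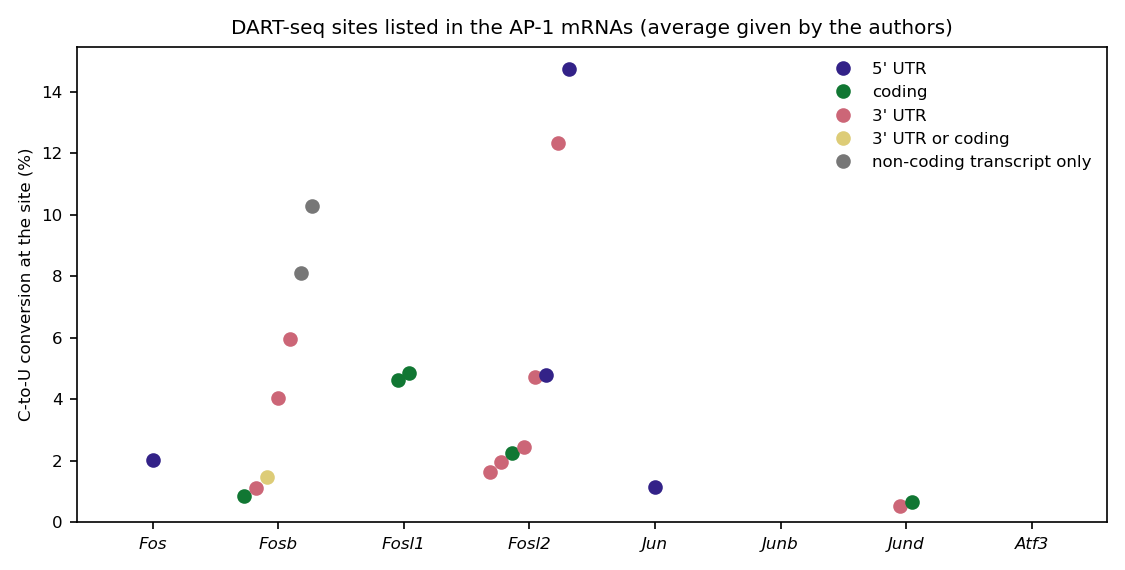
C-to-U conversion, in percent, at each of the 21 sites listed in the AP-1 mRNAs, coloured by the part of the transcript and given as the authors' average with no error. Fosl2 and Fosb hold the 4 sites above 8%, and Junb and Atf3 have no point.

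Among the 16 libraries the AP-1 mRNAs other than Jund varied together, with Pearson's r of the log2 CPM between any pair of 0.851 to 0.992, against 0.223 to 0.502 for Jund with the others. The libraries share treatments, and r takes in that difference along with those between genotypes, fractions and replicates. The part of each was not tested, so these are descriptions. The genes with the highest r to each AP-1 gene, other AP-1 genes left out, were Npas4 (0.994), 1700016P03Rik (0.991) and Mir212 (0.99) for Fos, and Btg2 (0.995), Arc (0.994) and Nr4a1 (0.994) for Fosb. Fosl1 was most like Atf4 (0.984), Sertad1 (0.975) and Egr1 (0.971), and Fosl2 most like Nr4a3 (0.985), Per1 (0.972) and Bdnf (0.971). Junb shared Btg2 (0.992) and Arc (0.992) with Fosb and had Ier2 (0.989) next, and Atf3 was most like Maff (0.993), Npas4 (0.992) and Tiparp (0.991). Jun was most like H3f3b (0.986), Fbxo33 (0.984) and Ndel1 (0.983). For Jund the best were lower, with Cited2 at 0.907, Ppp2r2d at 0.897 and Gm14519 at 0.887.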

How the data were processed

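RNA was taken from soma and neurite fractions (50 ng a library in the submitters' labels) and sequenced as NEBNext single cell/low input libraries. Per the labels and the study's methods, the authors aligned reads with STAR 2.7.7a to mm10 and made the deposited counts with featureCounts 2.0.1 per gene over exons of Ensembl annotation, unstranded and with multi-mapped reads included. The deposited DART-seq tables hold a score per RNA and a converted fraction per site, both averaged over libraries by the authors. Columns of the authors' own comparisons (fold changes and p-values) were not used.

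Counts were tested with edgeR 4.0.16 in R 4.3.3 (quasi-likelihood F-test, two-sided, TMM scaling, Benjamini-Hochberg over all genes that averaged 10 counts or more). Each SE printed is the absolute log2 change divided by the square root of its F statistic. Mitochondrially encoded genes (37, all at 0) were left out. Fits used the 8 libraries of a genotype for KCl and for neurites against soma, and 16 for genotype and interaction. DESeq2 1.42.0, other scalings, no filter, other sample sets, replicate blocks and leaving out libraries were alternatives. The fit was tested on simulated counts. Promoters came from RefSeq, exon and UTR places of the sites from GENCODE M21.

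The labels do not tie replicate numbers to litters or inserts. Blocked fits took same-numbered libraries of 1 genotype as 1 litter for KCl and 1 insert for the fractions. The correlation of their replicate differences, over 15170 genes, was -0.137 and 0.0329 between soma and neurites in WT (Ctrl, KCl) and 0.076 and 0.897 in KO. Between Ctrl and KCl it was 0.076 and -0.0755 in WT (soma, neurites) and 0.146 and 0.19 in KO.

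The 8 genes and the lists were chosen with earlier results of these data known. The text names the 8 genes, Mettl3, up to 3 called genes a list with the smallest p in WT soma, and the 3 genes most correlated with each; Nfil3, Crem, Cebpb and Cebpd were added after their values were seen. With n = 2, p-values cover only the spread between these libraries. A list of AP-1 target genes is not reported here.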

Additional observations from a re-analysis of the deposited data

Results flagged for a closer look

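The shift of the neurite to soma ratio with KCl stood out in WT for 3 AP-1 genes, because the effect of KCl in neurites differed from its effect in soma by the test of that difference at an unadjusted p of at most 0.05. The log2 differences were -1.17 for Fos, -0.66 for Fosb and -1.55 for Atf3. These genes also had the largest folds of the AP-1 genes in WT soma. Per the paper, RNAs that rose more in soma with KCl tended to shift less toward neurites, across RNAs in general. The part of this in the AP-1 values was not tested. None passed an adjusted p of 0.05 over all genes in the fit reported. With DESeq2 Fos (adjusted p = 0.000651) and Atf3 (0.000104) did, and with no filter on low counts in edgeR as well (1.22e-05 and 6.34e-07). In KO the same test picked out Fosb, at -1.19.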

How the results depend on the processing

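The counts of AP-1 genes called kept their value or changed by at most 1.5 times in 138 of the alternatives tried. They rose by more, or from 0, in 26 and fell by more, or to 0, in 8. A change from 8 calls to 6 or from 3 to 2 is thus among the 138. The 8 calls in each WT fraction went to 7 (soma) and 6 (neurites) with all 16 libraries in 1 fit, where the genes called higher and lower went from 899 and 712 to 320 and 21 in soma and from 734 and 375 to 240 and 23 in neurites. With each of the 4 WT libraries of a fraction left out in turn, Jund kept the smallest change. It ran from 1.77 to 2.28 in soma and from 1.655 to 1.817 in neurites. In KO soma, where 0 AP-1 genes were called, 7 were with DESeq2, 8 with no filter (Jund among them as lower), 7 with 16 libraries and 3 without the 2 libraries of KO KCl replicate 1. In KO neurites 6, 7, 6 and 2 were called under the same alternatives. In these, the genes called rose to 708 and 91 with no filter in soma and 419 and 22 in neurites, and to 231 and 46, and 208 and 15, with 16 libraries. The change of Jund in KO neurites turned to 0.52 without the 2 libraries of KO KCl replicate 1. With each of the 4 KO neurite libraries left out in turn it ran from -1.14 to 0.47. With each of the 4 KO soma libraries left out, the change of Jund in KO soma ran from -2.83 to 1.28.

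With no filter the interaction in soma called 2 (Fos and Jund), among 208 genes higher and 28 lower, and leaving out 1 library gave 0 to 1 (Jund without KO soma Ctrl replicate 1, among 1316 and 126 genes). Leaving out 1 library, the resting soma change of Jund between genotypes ran from 0.80 to 4.87. KO against WT at rest called 1 in soma with DESeq2, among 188 genes higher and 225 lower, and 1 with no filter, among 36 and 36. It called 1 in resting neurites with 4 libraries alone, among 38 and 98. After KCl in neurites it called 1 (Atf3) without KO KCl replicate 1, and 0 to 2 leaving out 1 library (Fosb and Junb without KO neurite KCl replicate 2, where 4075 genes were higher and 3164 lower). Neurites against soma in WT called 1 at rest with 4 libraries alone (Fosl2, among 2458 genes higher and 745 lower). After KCl it called 0 with 16 libraries, as for all genes. Leaving out 1 library, the change of Fosl2 at rest ran from 0.55 to 0.65. After KCl the changes ran from -0.80 to -0.58 for Fos, -1.47 to -0.94 for Atf3 and -0.61 to -0.52 for Jun. The causes were not tested.

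With a replicate block for the litter, 1 AP-1 gene (Fosb) was called in KO soma, among 4 genes higher and 0 lower. For the change of the ratio, the fit with no replicate block for the insert gave 2 in WT instead of 3 and 0 in KO instead of 1. Crossing the WT Ctrl pairing, chosen after seeing the data, gave 2, with 495 and 392 genes. Otherwise the block changed no count of AP-1 calls. The WT count was 2 with 16 libraries, 4 with DESeq2 and with no filter and 2 to 4 leaving out 1 library. The KO count was 2 with no filter, 4 with 16 libraries, 0 without KO KCl replicate 1 and 0 to 5 leaving out 1 library: 5 without KO neurite Ctrl replicate 2, among 474 and 998 genes, and 5 without KO soma Ctrl replicate 2, among 472 and 974. Fosb in WT lost its call in 7 of 14 alternatives, and the adjusted p of this contrast in WT, 0.938 for Fos and Atf3, ran from 1.22e-05 to 1 and from 6.34e-07 to 1. Another scaling moved a level by at most 4.68% (DESeq2's size factors) or 16.5% (total counts).

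Counts over all genes moved as well. KO against WT went with DESeq2 from 15 higher and 29 lower to 188 and 225 (resting soma), from 14 and 27 to 115 and 198 (resting neurites), from 11 and 40 to 558 and 469 (KCl soma) and from 23 and 76 to 1576 and 1020 (KCl neurites). With 4 libraries alone it gave 38 and 98 in resting neurites and 0 in the other 3. Neurites against soma in WT went to 0 with 16 libraries, from 2091 and 1054 at rest and 1582 and 629 after KCl. The change of the ratio in WT, 465 and 314, was 219 and 279 with DESeq2, 851 and 606 with no filter and 99 and 192 with 16 libraries. In KO, 55 and 460 became 49 and 1157, 168 and 1778, and 370 and 1199 in the same order. With no filter KCl in WT neurites gave 1145 and 631.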
